A study of Mus musculus with 31 samples.

Results

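Mice in this series were adult offspring of mothers raised in social isolation or of control mothers. Fbln1, Prokr2, Slc41a3, Mgat5b, Elmod1, Pou3f3, Ndst1 and Fhod3 are 8 of the 25497 genes measured in their thalamus. They were picked in an earlier analysis of the same libraries, because they stood among the smallest p-values for the difference between female offspring of isolated and of control mothers, or for how far males and females differed in that response. All 8 passed the filter on low counts, which kept 14886 genes. The values of both comparisons therefore describe the choice and are given with no test, and tests are given on transcript usage, on the other genes of the same pathways and, for the members chosen on the female comparison, on the males.

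Bulk RNA-seq of polyadenylated RNA was made from the thalamus of 31 mice at postnatal day 90. The groups were 8 female and 7 male offspring of mothers with social isolation rearing (SIR), and 8 female and 8 male control offspring, and the labels name no strain, genotype, litter or further treatment. SIR was a treatment of the mother, so all animals compared are offspring that differ in their mother's housing. Since litters are not given, each animal was taken as 1 sample, and p-values reflect only how much these animals vary. Library numbers of all SIR animals lie below those of all controls, so handling that followed the numbers cannot be told apart from housing.

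The members act in different parts of a cell. Fbln1 encodes fibulin-1, a secreted glycoprotein of the extracellular matrix, and Ndst1 and Mgat5b encode enzymes that build sugar chains of proteins and proteoglycans. Prokr2 is a G protein-coupled receptor for prokineticins, Slc41a3 a magnesium transporter, Elmod1 a GTPase-activating protein for Arf family GTPases, Fhod3 an actin-organising formin, and Pou3f3 (Brn1) a POU-domain transcription factor of neural development. The thalamus relays sensory and motor signals to the cortex, and its nuclei differ in the transcription factors and receptors they express.

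Library totals ran from 13 to 25.74 M (mega) estimated counts with a median of 23.28 M, and the lowest were in control libraries. Control female 31 (13 M) and control male 23 (14.81 M) were the shallowest. Among control females, library 31 gave the lowest level of Prokr2 and Slc41a3 below, and the highest of Elmod1, Pou3f3 and Ndst1. Among control males, library 23 gave the lowest level of Slc41a3 and the highest of Pou3f3. Tcf7l2, which marks the thalamus, stood between 188 and 351 TPM, a level per transcript length. The library labelled SIR female 5 went against its label: Ddx3y, a Y-linked helicase, stood at 41.6 CPM (read counts brought to a common library total with TMM factors) there, against 0 to 0.0481 in the other 15 libraries labelled female and 31.5 to 50.2 in the 15 labelled male. Eif2s3x, an X-linked gene that escapes X inactivation, stood at 148 CPM, below the 212 to 260 of the other females and within the 144 to 170 of the males. The members' female fold changes, and the female calls on markers, transcripts and partner genes, are therefore given with and without that library.

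Over all genes, edgeR's quasi-likelihood test called 688 (4.62% of those tested) between SIR and control females at a Benjamini-Hochberg adjusted p under 0.05, 355 of them higher (2.38%) and 333 lower (2.24%). In males 198 genes (1.33%) were called, 42 higher and 156 lower, and a scaling by upper quartiles gave 110 higher and 94 lower. The male effect differed from the female effect for 422 genes (2.83%), 161 higher (1.08%) and 261 lower (1.75%), and upper-quartile scaling gave 219 and 225. Without SIR female 5 the female count was 543. It was 45 without the 8 libraries whose numbers stand far from the others, and 295 with 3 principal components of marker list scores as covariates. The male count was 542 and 1 under these settings and 0 without control male 22, and the count for the contrast of the sexes was 6 with the components.

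Fbln1 stood higher in SIR females than in any other group. Its level in control females was 9.83, 13.3 and 18 CPM (lowest, median and highest of 8), and in SIR females 20, 27.9 and 35.1. The groups did not overlap, and the log2 fold change was 0.98 ± 0.14 (SE), a 1.97-fold higher level. Control males held 10.9, 20.7 and 22.3 CPM and SIR males 13.5, 15 and 17, so that control males were spread over SIR males and reached up into the lowest SIR females. In males the log2 fold change was -0.27 ± 0.15 (edgeR adjusted p = 0.335), and all 7 SIR males lay below the control median. The library labelled SIR female 5 held 23.6 CPM, and without it the female log2 fold change was 1.01.

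Prokr2, the receptor, had the lowest level per length of the members (median 2.43 TPM over all libraries) and the largest fold in females. Control females held 1.44, 2.71 and 4.18 CPM and SIR females 4.86, 9.52 and 12.4. Every SIR female stood above every control female, by a log2 fold change of 1.62 ± 0.25 (3.08-fold). Control males held 2.51, 4.41 and 8.37 CPM and SIR males 2.63, 4.68 and 6.60, and the SIR males lay inside the wider range of the control males. The male log2 fold change was -0.07 ± 0.25 (edgeR adjusted p = 0.933), and 4 of 7 SIR males lay above the control median. SIR female 5 held 7.29 CPM, and the female log2 fold change without it was 1.66. The low counts of this gene, 18 to 318 per library, limit the precision of each value.

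Slc41a3, the magnesium transporter, was lowest in control females, and the means of the other 3 groups each lay within 1 SD of the next. Control females held 6.72, 10.8 and 12.3 CPM and SIR females 13.2, 16.4 and 19.8, again with no overlap. The female log2 fold change was 0.70 ± 0.11 (1.62-fold). Control males, at 12, 16.3 and 18.7 CPM, had a mean within 1 SD of the SIR females, and SIR males held 10.9, 13.4 and 16. The male log2 fold change was -0.24 ± 0.11 (edgeR adjusted p = 0.244), and with 8 libraries left out, those numbered far from the others, it was -0.36 with an adjusted p of 0.0443. The library labelled SIR female 5 was the lowest of the SIR females, and the female log2 fold change without it was 0.74.

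Mgat5b encodes the brain enzyme that branches O-mannosyl glycans. Control females held 94.3, 119 and 131 CPM and SIR females 142, 156 and 180, with no overlap and a log2 fold change of 0.46 ± 0.07 (1.38-fold). Control males at 122, 134 and 151 CPM and SIR males at 108, 128 and 145 overlapped, and the male log2 fold change was -0.10 ± 0.07 (edgeR adjusted p = 0.488). SIR female 5 held 144 CPM, inside the range of the other SIR females and also that of SIR males, and without it the female log2 fold change was 0.48.

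Elmod1 and Pou3f3 stood lower in SIR females. For Elmod1, control females held 113, 122 and 147 CPM and SIR females 90.2, 95.4 and 111, with no overlap and a log2 fold change of -0.37 ± 0.06 (1.29-fold lower). Control males held 95.4, 105 and 127 CPM and SIR males 109, 112 and 126. All 7 SIR males lay above the control male median, yet the male log2 fold change was 0.06 ± 0.06 (edgeR adjusted p = 0.661). Without SIR female 5, which held 99.2 CPM, the female value stayed at -0.37.

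For Pou3f3, control females held 46.7, 60.2 and 75.1 CPM and SIR females 41.8, 44.4 and 51.8, and 6 of 8 SIR females lay below all controls. The log2 fold change was -0.43 ± 0.07 (1.35-fold lower) and -0.46 without SIR female 5, whose 51.8 CPM was the highest of its group. Control males held 44.7, 49.7 and 60.3 CPM and SIR males 41.3, 48.5 and 53.9. The mean of control females lay more than 1 SD above that of control males, and the means of the other 3 groups lay within 1 SD of their neighbours. The male log2 fold change was -0.06 ± 0.07 (edgeR adjusted p = 0.746).

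Ndst1 and Fhod3 were chosen on the difference between the sexes, and both stood higher in SIR females and lower in SIR males than in the controls of the same sex. Ndst1, which starts the sulphation of heparan sulphate chains, held 152, 159 and 173 CPM in control females and 178, 189 and 194 in SIR females. In males the order was turned, with 164, 184 and 202 CPM in controls and 155, 163 and 170 in SIR animals, 5 of 7 below all controls. Its log2 fold change was 0.22 ± 0.04 in females and -0.16 ± 0.04 in males, a difference of -0.38 ± 0.05. Fhod3 held 52.1, 55.1 and 60.1 CPM in control females and 56.2, 68.7 and 72.6 in SIR females, 7 of 8 above all controls. Control males at 57.1, 62.9 and 72.5 CPM did not overlap SIR males at 46.1, 54.8 and 56.5. Its log2 fold changes were 0.26 ± 0.05 and -0.25 ± 0.06. Without SIR female 5 the female values were 0.22 for Ndst1 and 0.28 for Fhod3.

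**Figure D1:**
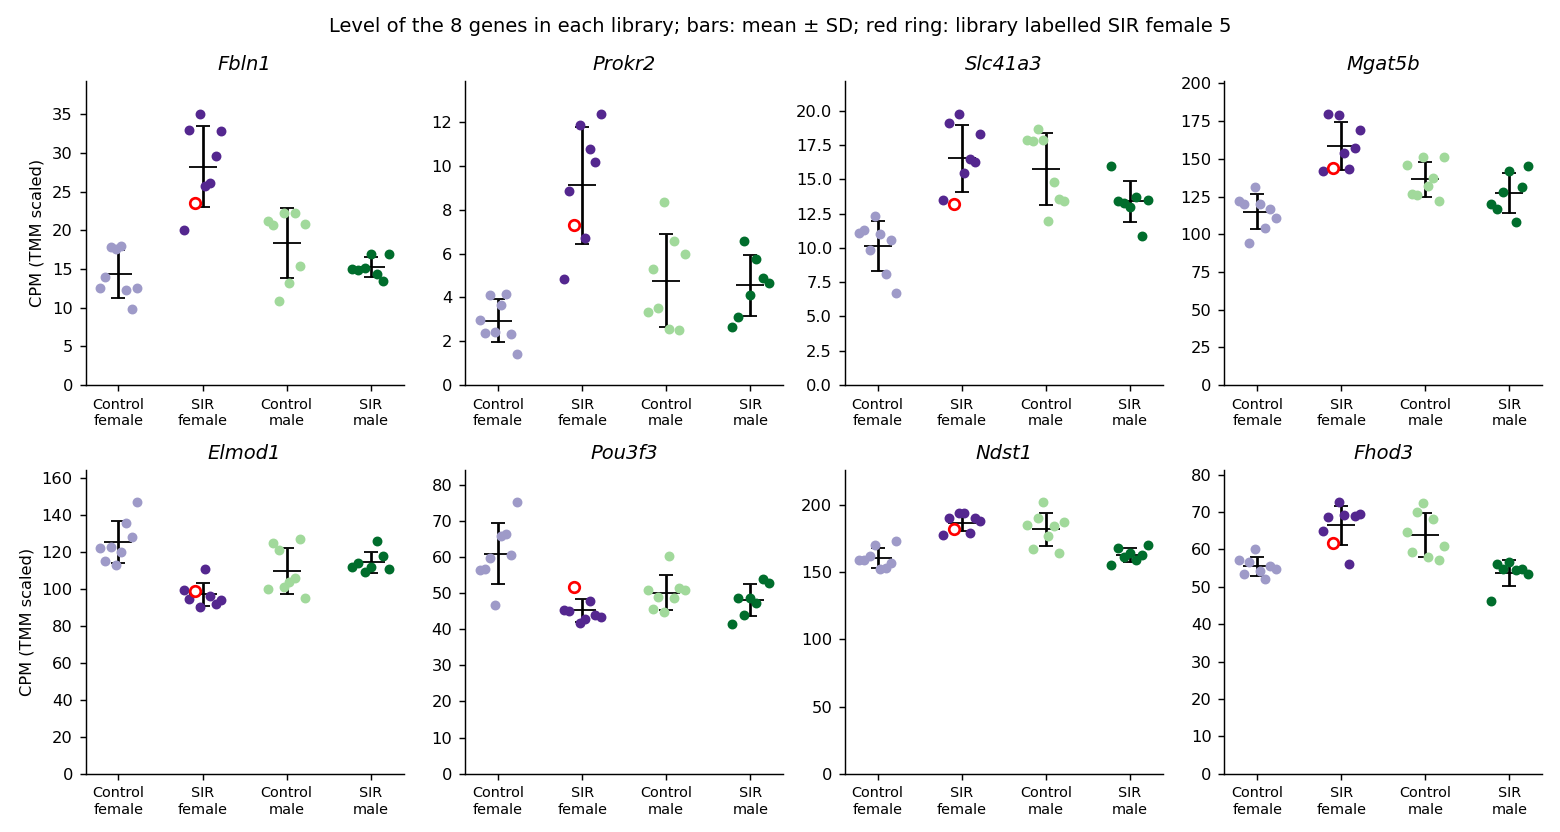
Level of each gene in CPM (vertical axes, from 0) in each of the 31 libraries by group, with bars for the mean and SD and a red ring for the library labelled SIR female 5. Fbln1 and Prokr2 are highest in SIR females, Slc41a3 is lowest and Pou3f3 highest in control females, and Ndst1 and Fhod3 change places between the sexes.

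In females 6 of the 8 members did not overlap between SIR and control, with or without SIR female 5, where 0.652% of all genes tested did not. In males 1 of the 8, Fhod3, did not overlap, where 0.484% of all genes did not. The female comparison, or its contrast with the male one, chose the genes, so nothing is read from these counts. The male minus the female log2 effect was -1.25 for Fbln1, -1.69 for Prokr2, -0.94 for Slc41a3, -0.56 for Mgat5b, 0.43 for Elmod1 and 0.37 for Pou3f3.

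**Figure D2:**
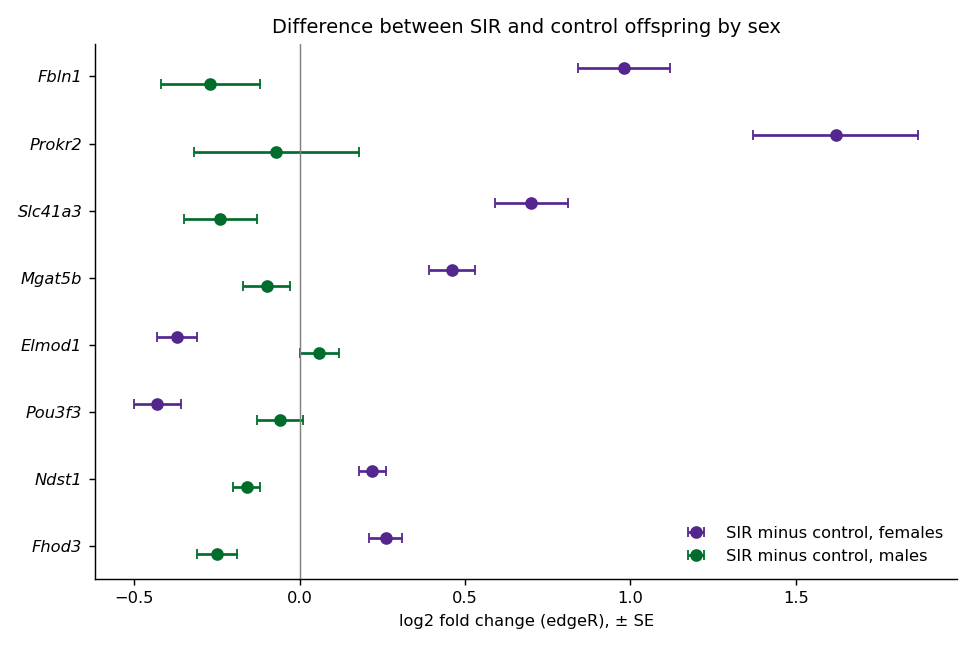
Log2 fold change of SIR against control (horizontal axis) with SE for the 8 genes in females and in males. The male points lie between -0.27 and 0.06, and the female points between -0.43 and 1.62.

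The choice had a limit of 6 genes per direction, ranked by p. The members hold only some of these ranks, and each gene given as the next outside ranked 7. Prokr2 was the last inside it among genes higher in SIR females and Sorcs2, with a log2 fold change of 0.34 ± 0.05, the next outside. Among genes lower in SIR females Pou3f3 ranked 4 and Hpca, at -1.06 ± 0.19, was the next outside. For the difference between the sexes Fhod3 ranked 4, at -0.51 ± 0.08, and Syndig1l, at -0.87 ± 0.14, was the next outside.

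Region and cell type markers moved between the same groups. Of 10 oligodendrocyte markers 5 were lower in SIR females by edgeR's test over all genes (Mbp, Mobp, Ermn and Cldn11 among them), and 2 were higher in SIR males. The summed level of the list was 9358 to 11108 TPM in control females, 7048 to 9137 in SIR females, 6909 to 9449 in control males and 7520 to 9527 in SIR males, so the female groups did not overlap. Of 12 choroid plexus markers 3 were lower in SIR females, with Folr1 and Kcnj13 at 0 in the lowest libraries. The list summed to 307 to 4467 TPM in control females (median 436) and to 235 to 835 in SIR females (median 282). Of 14 thalamus markers 2 were higher in SIR females, Lhx2 by 0.67 on the log2 scale (edgeR adjusted p = 0.00408) and Gbx2 by 0.53 (adjusted p = 0.0248), both transcription factors of thalamic neurons. In males they stood at -0.43 and -0.42, neither called, and both were called for the difference between the sexes (-1.1 and -0.95). Of 11 thalamic relay markers Necab1 was higher in SIR females (0.83, edgeR adjusted p = 0.00843) and lower in SIR males (-0.79, adjusted p = 0.0317). Glra3 of that list was lower in SIR females (-0.82, edgeR adjusted p = 0.0495). Of 12 midline and intralaminar markers Calb2, a calcium-binding protein, was higher (0.71) and 2, Nts and Gpr139, were lower, and the list summed to 311 to 598 TPM in control and 452 to 645 in SIR females. Of the markers of midbrain neurons and of the pretectum 3 each were lower in SIR females (lists summing to 22.1 to 86.8 and 37.2 to 71 TPM in control females, 15.2 to 44.8 and 30.6 to 50.7 in SIR females), and 2 of 9 mural cell markers were lower. Without SIR female 5 the lower markers in females were 3 of 10 for oligodendrocytes (Ermn, Mbp and Mobp), 0 of 12 for the choroid plexus and 2 each for midbrain neurons and the pretectum. The female calls of Lhx2, Gbx2, Necab1, Calb2, Nts and Gpr139 then held, and that of Glra3 was lost. In bulk tissue, fewer cells of a type and less RNA per cell cannot be told apart.

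The part of each list in the members' differences was not tested singly. With the 3 marker components as covariates, the female log2 fold changes were 0.96 for Fbln1, 1.31 for Prokr2, 0.42 for Slc41a3, 0.36 for Mgat5b, -0.31 for Elmod1, -0.23 for Pou3f3, 0.19 for Ndst1 and 0.16 for Fhod3. Fbln1 thus kept its size, and Slc41a3, Pou3f3 and Fhod3 lost the largest shares of theirs. The male minus the female effect was then -0.59 for Slc41a3, 0.10 for Pou3f3 and -0.31 for Fhod3. Without the 8 libraries numbered apart, which were 3 SIR and 5 control libraries, the female values were 0.85 for Fbln1, 0.58 for Slc41a3, -0.29 for Elmod1 and -0.34 for Pou3f3.

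**Figure D3:**
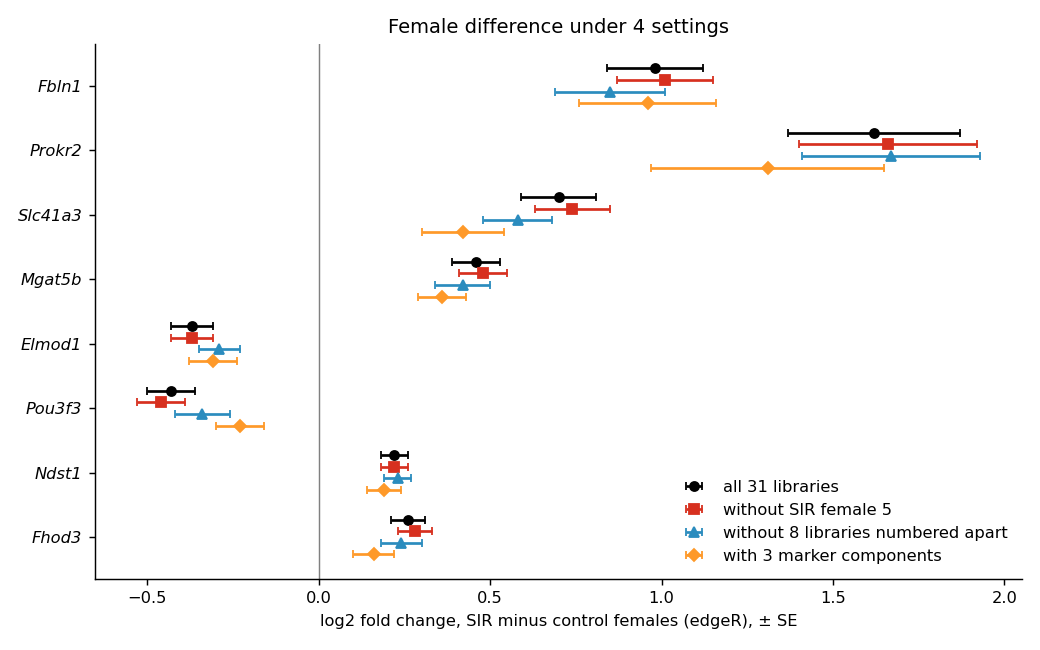
Log2 fold change of SIR against control females (horizontal axis) with SE under 4 settings. Every gene keeps its side of 0, and Slc41a3, Pou3f3 and Fhod3 lie at 0.42, -0.23 and 0.16 with the 3 marker components, against 0.70, -0.43 and 0.26 without them. The genes were chosen on this difference or on its contrast with males, so nothing is read from their side of 0.

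The transcripts behind each gene were compared next, a measure the choice of genes did not use. Fbln1 was carried by 2 coding transcripts that share their first 1704 coding bases. Fbln1-202, with 685 residues, held 65.0% of the gene's estimated counts on average and Fbln1-201, with 705 residues, 35.0%. They part at the end of the coding sequence, shown here with the last 30 shared bases in lower case and the first 60 bases that differ in capitals, from the GENCODE transcripts.

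Fbln1-201: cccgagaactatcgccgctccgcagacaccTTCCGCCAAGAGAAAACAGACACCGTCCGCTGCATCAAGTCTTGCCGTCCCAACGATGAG

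Fbln1-202: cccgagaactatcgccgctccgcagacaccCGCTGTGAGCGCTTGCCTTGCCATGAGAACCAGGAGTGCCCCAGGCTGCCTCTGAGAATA

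Fbln1-201 took 38.4% ± 6.7 (SD, n = 8) of the counts in control females and 33.9% ± 3.0 in SIR females (33.4% ± 2.8 without SIR female 5), and 32.5% ± 4.6 and 35.4% ± 8.8 (n = 7) in the males. Its usage, meaning its fold change relative to that of the gene, changed by -0.19 on the log2 scale in females (edgeR diffSpliceDGE adjusted p = 1). The ranges of its share overlapped between SIR and control animals of each sex.

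Of 22 transcripts of 7 members tested, none was called in females, where 0.216% of 36595 transcripts were, and none in males, where 0.404% were. At an unadjusted p under 0.05 there were 0 in females and 2 in males, and with limma 2 in females and 5 in males. The share of all transcripts under that unadjusted threshold is not given here, so nothing is read from these counts. Without SIR female 5, 84 transcripts were called in females over all genes. Among the members' transcripts the count was 1 of 21, Fhod3-204 (edgeR diffSpliceDGE adjusted p = 0.00874). This coding form held 0.7% of its gene and was singled out after its values were seen. Its estimated count was 100.8 in SIR female 5 and 0 in the other 7 SIR females, and 6 of 8 control females were also at 0, with 37.3 the highest of them, so the call rests on 2 control libraries. Mgat5b-202, a transcript with a retained intron, took 12.5% ± 7.7 of the counts in SIR males against 3.8% ± 3.3 in control males, and 6.5% ± 5.2 in control and 5.0% ± 4.1 in SIR females. Its usage differed by 1.65 on the log2 scale, which did not pass the adjustment (unadjusted p = 0.000797, adjusted p = 0.131). Ndst1-205 in males stood at -1.09 (adjusted p = 0.885). The main forms were Slc41a3-202 with 97.3% of its gene, Mgat5b-201 with 91.2%, Elmod1-201 with 85.6%, Prokr2-201 with 62.9%, Ndst1-201 with 56.5% and Fhod3-205 with 52.6%. Ndst1-202, annotated as coding with 185 codons against 882 for Ndst1-201, held 39.5% of its gene, and Fhod3-201 held 45.6%. Pou3f3 has 1 transcript.

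**Figure D4:**
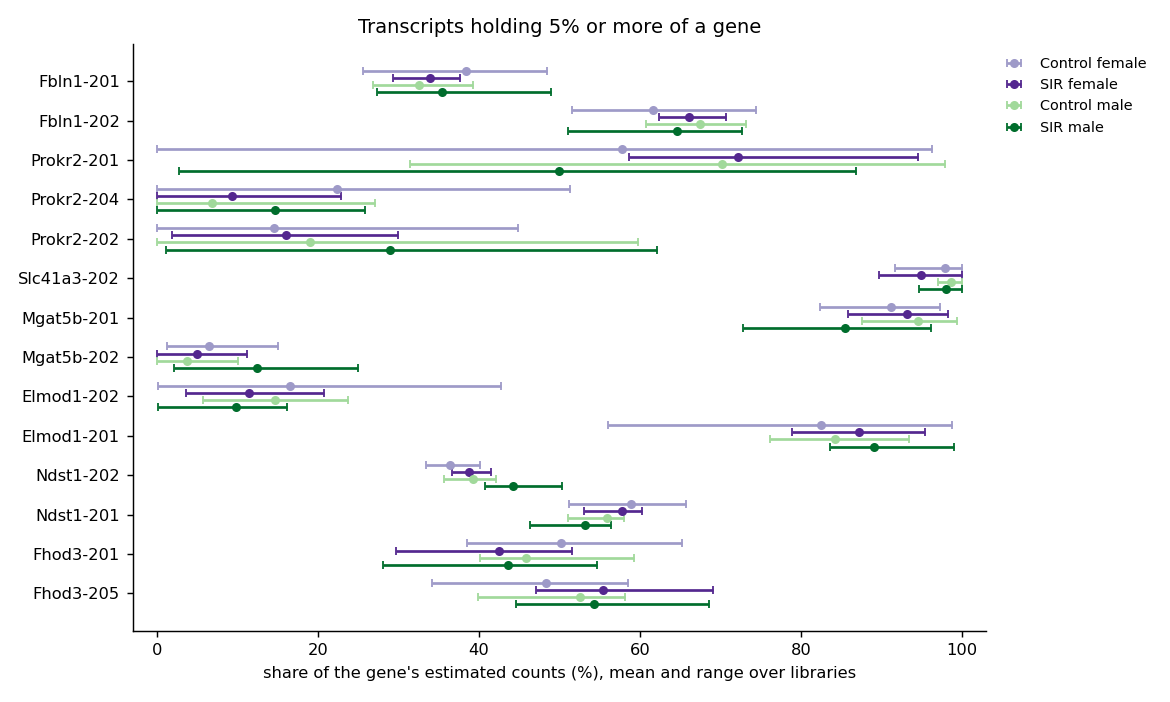
Share of each gene's estimated counts (horizontal axis, %) held by transcripts with a mean share of 5% or more, as mean and range over the libraries of each group. The ranges overlap between SIR and control females for every transcript, and Mgat5b-202 reaches 25% in SIR males.

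The sequence before the start is shown for Prokr2 and Fbln1, which had the largest female folds, and for Pou3f3, the transcription factor among the members, from RefSeq on GRCm38.p6. Each is the 250 bases before the start, in the direction of the gene, with motif matches on either strand in capitals. For Fbln1 the source lists 2 starts, and only the window of the first was searched. The motifs were the GC box GGGCGG, the TATA box TATAAA, the CCAAT box CCAAT, the POU octamer ATGCAAAT and the E-box CACGTG, none of which contains another. In 32851 promoters of the same length, 32.7% held a GC box, 12.4% a TATA box, 33.8% a CCAAT box, 1.6% the octamer and 6.02% the E-box.

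Fbln1, chr15:85205699-85205948, + strand: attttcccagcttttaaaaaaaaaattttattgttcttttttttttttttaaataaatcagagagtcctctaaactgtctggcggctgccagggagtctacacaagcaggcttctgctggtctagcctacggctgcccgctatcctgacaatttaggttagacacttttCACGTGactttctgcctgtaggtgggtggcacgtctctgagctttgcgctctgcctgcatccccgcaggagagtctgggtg

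Prokr2, chr2:132385448-132385697, - strand: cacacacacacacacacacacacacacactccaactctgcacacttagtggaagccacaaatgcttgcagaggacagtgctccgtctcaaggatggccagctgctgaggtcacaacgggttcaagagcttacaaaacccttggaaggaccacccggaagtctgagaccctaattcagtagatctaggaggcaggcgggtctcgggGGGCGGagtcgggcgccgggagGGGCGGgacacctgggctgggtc

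Pou3f3, chr1:42695518-42695767, + strand: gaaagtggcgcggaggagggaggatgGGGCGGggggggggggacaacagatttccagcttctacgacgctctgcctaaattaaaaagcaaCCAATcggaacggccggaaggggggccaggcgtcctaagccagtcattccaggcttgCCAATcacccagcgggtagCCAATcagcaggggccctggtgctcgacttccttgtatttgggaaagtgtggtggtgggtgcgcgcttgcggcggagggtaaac

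Fbln1 held 1 E-box, Prokr2 held 2 GC boxes, and Pou3f3 held 1 GC box and 3 CCAAT boxes. No octamer or TATA box was found in these 3 windows. A match describes letters, and no binding was measured.

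Other genes of the same families and pathways were examined from 8 lists, of which 109 of 115 genes were tested. In females 1 rose and 4 fell, 4.59% of those tested, where 4.62% of all genes were called, so the share was that of all genes. In males none was called, where 1.33% of all genes were. The median log2 fold change of the lists was -0.04 in females and -0.01 in males, against -0.011 and -0.001 over all genes. Among fibulins and their matrix partners Fbln5, a fibulin of elastic fibres, rose in SIR females, from 20.5 ± 1.87 CPM to 27.7 ± 2.39 (SD, n = 8 each), by a log2 fold change of 0.43 ± 0.10 (edgeR adjusted p = 0.0118). In heparan sulphate synthesis, the list of Ndst1, Hs6st3, a 6-O-sulphotransferase, fell by 0.41 on the log2 scale in SIR females (adjusted p = 0.00811) and Extl2, a glycosyltransferase, by 0.22 (adjusted p = 0.0204). Inf2, a formin like Fhod3, fell by 0.27 (adjusted p = 0.0105). The calls of Fbln5 and Inf2 in females, but not that of Hs6st3, were lost with the marker components, and those of Fbln5, Inf2 and Extl2 without the 8 libraries numbered apart. Without SIR female 5 the female calls of Fbln5, Hs6st3, Extl2 and Inf2 held.

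In the other 4 lists no gene was called in females. The smallest p-values belonged to Prokr1, the other prokineticin receptor, at -1.13 (adjusted p = 0.116), Trpm7, a magnesium-permeable channel, at -0.23 (0.116), Elmo2, an engulfment adaptor, at 0.11 (0.141), and Pou3f2, another POU factor of the brain, at -0.34 (0.154). The effect differed between the sexes for 5 of the 109 genes (4.59%), where 2.83% of all genes were called. Of these Fbln5 (-0.56, adjusted p = 0.0237) and Grid2ip, a postsynaptic formin-related protein (-0.67, adjusted p = 0.0441), had the lower male effect. Inf2 (0.44, adjusted p = 0.00411), Efemp1, a fibulin-family protein (0.61, adjusted p = 0.0308), and Adamts1, a matrix protease (0.54, adjusted p = 0.0347), had the higher one. All 5 calls were lost with the marker components, where the values were -0.44 for Fbln5, -0.52 for Grid2ip, 0.22 for Inf2, 0.23 for Efemp1 and 0.18 for Adamts1, and that of Grid2ip also without SIR female 5.

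**Figure D5:**
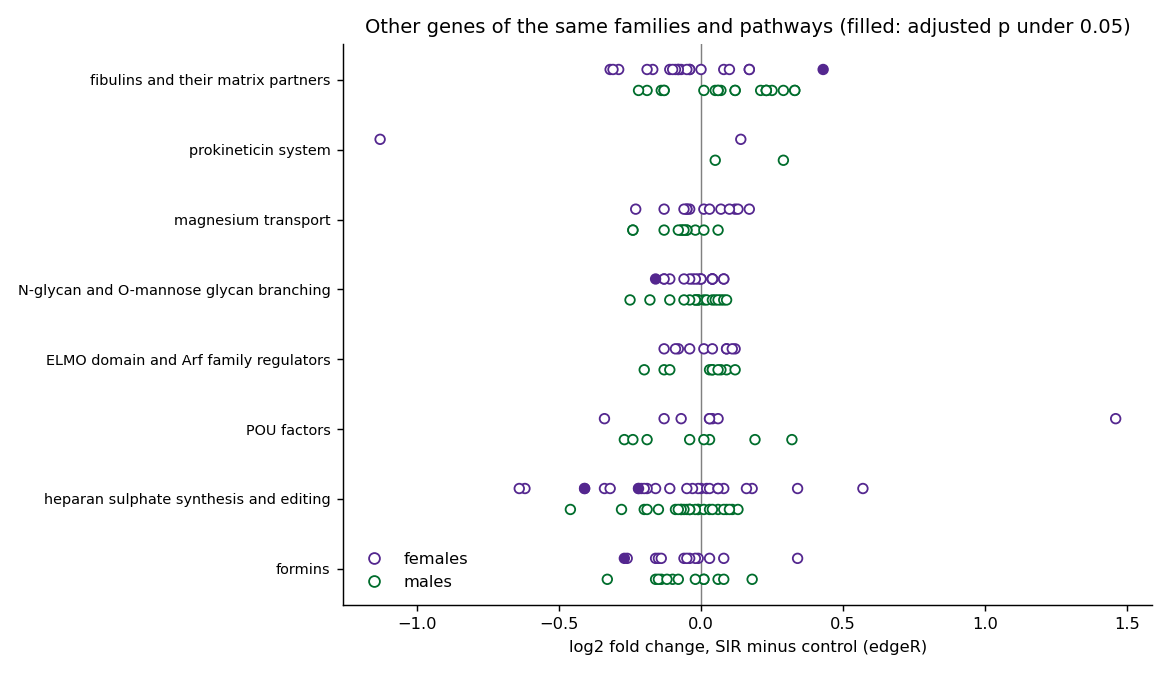
Log2 fold change of SIR against control (horizontal axis) for the 109 other genes of the 8 lists in females and in males, filled where the adjusted p was under 0.05. The 5 filled points are all in females, and Fbln5 at 0.43 is the filled point above 0.

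Lastly, levels were compared across the 31 libraries after the 4 group means were removed, so that the values describe animals within groups. Ndst1 and Fhod3 had the highest correlation among the members (r = 0.73), Slc41a3 and Pou3f3 the lowest (r = -0.76), and Mgat5b and Elmod1 stood at -0.60, while Fbln1 and Prokr2 stood at 0.57. Among 14128 genes, the most alike were Maob, Lhx2 and Grm2 for Fbln1 (r = 0.76, 0.73 and 0.71), and St6galnac5, Fam81a and Zic5 for Prokr2 (0.82, 0.82 and 0.74). For Slc41a3 they were Aurka, Rasd2 and Frem3 (0.79, 0.76 and 0.76), and for Mgat5b Stum, Zic2 and Slc7a8 (0.84, 0.84 and 0.83). For Elmod1 they included Scamp1 and Vkorc1l1 (0.78 and 0.76), and for Pou3f3 Trpm3, Heph and Specc1 (0.77, 0.73 and 0.71). Fhod3 and Cmya5 were among the most alike to Ndst1 (0.73 and 0.69), and Epha6, Ptprn2 and Clip1 to Fhod3 (0.80, 0.77 and 0.75). Without the 2 libraries farthest from the median, r lay between 0.63 and 0.82. These are descriptions over 31 libraries that also differ in depth and cell makeup.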

How the data were processed

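Thalamic polyadenylated RNA of 31 mice was sequenced from stranded libraries, per the labels' protocols. The submitters' processing notes name FastQC, kallisto and the build GRCm39 without versions. Per the file headers, each deposited table lists 105878 transcripts with 3 values apiece, besides the length of the transcript. The first is kallisto's estimated count, a deposited value that can be fractional and was not scaled further. The second is TPM, which the authors deposited as counts per effective length, set to a common total. The third is the deposited effective length.

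Of the transcripts, 104949 (99.12%) matched GENCODE M21, an annotation of GRCm38 used for names and transcript sequences, and unmatched ones took 0.69% to 0.76% of a library. No source used here states whether the counting used strand, so overlapping and antisense genes are uncertain. Gene values are sums of the estimated counts over transcripts, as whole numbers. edgeR 4.0.16 in R 4.3.3 kept 14886 genes by filterByExpr, scaled them by TMM and fitted the 4 groups in 1 robust quasi-likelihood model (common biological coefficient of variation 0.13), with Benjamini-Hochberg adjustment over all genes and a threshold of 0.05. Transcript usage was tested with edgeR's diffSpliceDGE. The scripts were tested on simulated data. No 2 libraries of a group were alike within sampling noise.

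Members and lists were chosen with earlier results of these data known. Named were all members, their transcripts with 5% or more of the gene, partner genes that were called or had the smallest female p of their list, and the 3 genes most alike to each member by Pearson's r of log2 CPM with a prior count of 2. Some genes that this rule selected are left out of the text. Alternatives were other scalings and filters, DESeq2 1.42.0, limma 3.58.1 on voom values and on log2(TPM + 1) and log2(TPM + 0.1), length offsets, length and GC trends, marker components, and libraries left out.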

Additional observations from a re-analysis of the deposited data

Results flagged for a closer look

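In 3 of 32 groups of gene levels, 1 library lay farther from the rest than a gap test at the 95% level allows, and chance gives about 1 in 20. Elmod1 stood at 111 CPM in SIR female 9, above the other SIR females. Pou3f3 stood at 60.3 CPM in control male 23, a shallow library (14.81 M), above the other control males. Fhod3 stood at 46.1 CPM in SIR male 1, below the other SIR males. Of 56 groups of transcript shares, 4 had such a library. Prokr2-204 took 27.1% of its gene in control male 27, and Slc41a3-202 took 91.7% in control female 20. In control female 31, the shallowest library, Elmod1-202 took 42.7% and Elmod1-201 took 56.0%, and these shares sum to nearly the whole gene. Ddx3y stood at 41.6 CPM in the library labelled SIR female 5 and near 0 in the other SIR females.

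The effect of housing differed between the sexes, by edgeR's interaction term, for 5 genes of the members' pathways. The male minus the female log2 effect was -0.56 for Fbln5, 0.54 for Adamts1, 0.61 for Efemp1, 0.44 for Inf2 and -0.67 for Grid2ip. The members themselves were chosen in part on this term and are not listed here.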

How the results depend on the processing

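No paired analysis was possible because the labels name no litter. In females each member kept its direction in all 46 alternatives, and in the difference between the sexes in all 45. These comparisons chose the members from the same libraries, so nothing is read from the kept directions. In males Prokr2 turned to 0.02 with voom weights, 0.18 with length offsets, 0.13 and 0.20 on log2(TPM + 1) and log2(TPM + 0.1), 0.00 with 3 marker components, and to 0.03, 0.01, 0.10 and 0.02 without SIR male 1, SIR male 4, control male 22 and control male 25, within a range of -0.18 to 0.10 when 1 library was left out. Mgat5b in males turned to 0.01 with length offsets and Pou3f3 to 0.05 with the length trend removed. Usage turned in females for Elmod1-201 (-0.09 with limma, -0.01 without the 8 libraries numbered apart), Elmod1-202 (0.08 in both), Mgat5b-201 and Mgat5b-202 (-0.02 and 0.55 without those 8), Ndst1-205, Fhod3-203 and Fhod3-204 (0.53, 0.03 and -0.87 with limma), and Fhod3-204 also without SIR female 5 (a fitted -6.17 against a group at 0, which is no measure of size). In males it turned for Fhod3-201 and Fhod3-205 (0.04 and -0.05 without those 8), Elmod1-204 (0.25 without those 8, 0.28 with limma), and Slc41a3-201 and Slc41a3-202 (-0.34 and 0.34 with limma).

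Counts of genes called moved more. In females they were 1185 with voom weights, 270 and 271 on log2(TPM + 1) and log2(TPM + 0.1), 458 without the 2 shallowest libraries, 45 without the 8 libraries numbered apart and 295 with 3 marker components. In males they were 79 without a filter, 626 with DESeq2, 629 with voom weights, 93 and 97 on the TPM scales, 379 without the shallowest, 542 without the 8, 76 with only the libraries compared, 27 and 79 with the length and the GC trend removed, and 1 with the components. For the difference between the sexes they were 713 with voom weights, 277 with length offsets, 223 and 219 on the TPM scales and 6 with the components. Transcripts called for usage in females were 10 with a filter of 1 CPM in 15 libraries and 153 without the 8, and in males 302 with limma and 34 with that filter. Leaving out 1 library gave 360 to 829 genes in females (360 without SIR female 3, 365 without control female 29, 381 without SIR female 7, 428 without control female 31), 0 to 506 in males (0 without control male 22, 506 without control male 27) and 285 to 532 for the difference. The cause was not tested.

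Adamts1 lost its call for the difference between the sexes in 13 of 45 alternatives, Efemp1 in 10 and Grid2ip in 27. Hs6st3 kept its female call in all 46.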
